A study of Rattus norvegicus with 18 samples.

Results

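The cell cycle and mitosis genes described here are 49 listed rat genes that run DNA replication, chromosome segregation and cytokinesis, and they were followed in cultured rings of rat thoracic aorta left untreated or given angiopoietin-1 (Ang1) or vascular endothelial growth factor (VEGF). A probe set, the group of short probes that reads 1 transcript, counted for a gene when the platform annotation named that gene and no other. Of the 49 genes, 48 had such a probe set. The Affymetrix RAE230A (array A) held 36 of them and the RAE230B (array B) 15, with Racgap1, Tk1 and Tacc3 on both. The 48 genes held 65 probe sets, 46 among the 15866 of array A and 19 among the 15276 of array B, control probe sets left out. Tpx2 had no probe set of its own.

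Rings of 2 mm were cut from the aorta of male Fisher 344 rats, whose age the labels give as 5 weeks and the design text as 1 month, and were kept in serum-free EBM. On day 13 of culture the rings received recombinant human VEGF at 10 ng/ml, or recombinant human Ang1 at 100 ng/ml with a poly-His antibody at 5 µg/ml, or medium alone. The labels place the RNA at 20 h after treatment and the design text at 18 h. The design text plans 4 to 6 rings per RNA. There were 9 RNAs, 3 per group, and each was hybridised to both array types. The untreated rings received neither factor and no antibody, so Ang1 and the antibody cannot be told apart. The design text states that each of 3 animals gave 1 RNA to every group. Untreated replicate 1 was labelled by a 2-cycle procedure and the other 8 RNAs by the standard one.

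In the cell cycle, D- and E-type cyclins carry a cell into S phase, the MCM helicase and the replication fork proteins copy the DNA, and cyclins A and B with Cdk1 then drive it into mitosis. Kinetochores join chromosomes to the spindle, the spindle checkpoint holds back the anaphase-promoting complex until all are attached, and the central spindle proteins complete division. Most of these genes are transcribed mainly in cycling cells, through E2F factors in S phase and through the CHR and CCAAT elements of the MuvB and NF-Y complexes before mitosis. Few cells of an adult artery divide, whereas endothelial, mural and fibroblast-like cells proliferate as an aortic ring sprouts. VEGF is a mitogen for endothelial cells, and Ang1 is the ligand of the endothelial receptor Tie2.

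Promoters are shown for the 5 members that lay lower after Ang1 at an unadjusted p below 0.05 and had an entry in the RefSeq promoter table (rat build GRCr8), because these are the genes the later comparison turns on. The choice was made after their values were seen. Racgap1 and Ccna2 met the same condition and had no entry. Each stretch runs 5′ to 3′ on the gene's own strand, from 250 bases before the annotated start to 20 bases after it. Capitals mark the CHR letters TTTGAA or TTCGAA, the CCAAT box CCAAT and the E2F letters TTCCCGCC, TTTGGCGC or TTTCGCGC, searched on both strands.
Ttk lies at chr8:93634389-93634658 (plus strand), Spc24 at chr8:28581280-28581549 (minus strand), Kif23 at chr8:71320565-71320834 (minus strand), Cdkn3 at chr15:22502136-22502405 (plus strand) and Nusap1 at chr3:127057045-127057314 (plus strand).
Ttk: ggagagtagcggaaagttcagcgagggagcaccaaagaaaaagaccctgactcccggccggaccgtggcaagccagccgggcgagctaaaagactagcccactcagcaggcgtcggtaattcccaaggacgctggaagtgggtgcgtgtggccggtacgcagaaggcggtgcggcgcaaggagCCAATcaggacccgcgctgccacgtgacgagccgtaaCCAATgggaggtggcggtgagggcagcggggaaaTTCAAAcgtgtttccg
Spc24: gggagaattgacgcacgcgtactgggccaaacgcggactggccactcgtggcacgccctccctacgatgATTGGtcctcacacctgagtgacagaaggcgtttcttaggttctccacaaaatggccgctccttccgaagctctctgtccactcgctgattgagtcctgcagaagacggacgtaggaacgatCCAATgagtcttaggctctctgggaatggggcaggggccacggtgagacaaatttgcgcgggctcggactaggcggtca
Kif23: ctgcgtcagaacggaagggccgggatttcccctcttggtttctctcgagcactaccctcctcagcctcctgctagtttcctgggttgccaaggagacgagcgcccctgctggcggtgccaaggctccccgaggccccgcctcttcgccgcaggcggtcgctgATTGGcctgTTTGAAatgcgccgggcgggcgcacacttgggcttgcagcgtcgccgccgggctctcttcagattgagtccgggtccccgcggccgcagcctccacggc
Cdkn3: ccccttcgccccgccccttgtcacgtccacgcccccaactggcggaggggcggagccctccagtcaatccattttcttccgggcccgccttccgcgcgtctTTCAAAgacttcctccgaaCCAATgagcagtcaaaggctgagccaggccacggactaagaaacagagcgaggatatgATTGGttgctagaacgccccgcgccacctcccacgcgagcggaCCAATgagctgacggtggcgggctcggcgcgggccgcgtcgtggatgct
Nusap1: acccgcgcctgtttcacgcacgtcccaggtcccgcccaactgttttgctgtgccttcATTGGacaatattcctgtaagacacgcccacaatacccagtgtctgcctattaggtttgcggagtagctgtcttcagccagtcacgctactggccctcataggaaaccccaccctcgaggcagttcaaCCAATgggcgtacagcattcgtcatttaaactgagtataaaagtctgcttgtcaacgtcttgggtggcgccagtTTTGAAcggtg
The 5 stretches held a CCAAT box each, and those of Ttk, Kif23, Cdkn3 and Nusap1 also held the CHR letters. The CHR letters began 5 bases after the start site in Ttk and 10 bases after it in Nusap1, and 79 bases before it in Kif23. Kif23 also carried TTCCCGCC 25 bases after the start, beyond the stretch shown.

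Over the whole window of 300 bases, 40 of the 49 genes had an entry. Of these, 24 (60%) held the CHR letters, against 19.5% of all 27457 windows, and 30 (75%) held CCAAT, against 37.8%. CHR and CCAAT stood together in 20 of 40 windows (50%), against 7.87% of all. The E2F letters were in 10 of 40 (25%), against 2.83%. Of these 10, Pola1, Mcm2, Mcm3, Mcm5, Mcm6, Mcm7, Rrm1 and Tyms belong to DNA replication or nucleotide supply, and Cdk1 and Kif23 to mitosis. These are matches of letters in a window, and no binding was measured.

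Levels are log2(intensity + 16) after quantile normalisation, and a probe set was kept for testing when its mean over the 9 arrays of its type lay at or above the 40th percentile. That left 9520 probe sets for testing from the first array type and 9166 from the second. Values are given as replicates 1, 2 and 3 of a group, and a difference is followed by its SE. Where a gene had several probe sets, the brightest stands for it. Of the 65 probe sets of the members, 49 were kept, and they stood for 42 genes (32 read by array A, 13 by array B). None was kept for Tyms, Foxm1, Aurka and Bub1b on array A or for Rrm2 and Ndc80 on array B. The counts below therefore cover the 42 genes that passed and not all members. The threshold was 6.52 on array A, where Spc24 (mean 6.60) was the member nearest above it. It was 6.71 on array B, where Ttk (6.72) lay just above it.

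Of the 9 RNAs, 2 stood apart from the rest on both array types. The median correlation of Ang1 replicate 2 with the other RNAs was 0.82 on array A and 0.66 on array B, and that of untreated replicate 2 was 0.90 and 0.85, against 0.93 to 0.97 and 0.88 to 0.91 for the other 7. The ratio of the 3′ to the 5′ Gapdh control probe set was 2.27 and 1.70 in these 2 RNAs on array A, against 9.11 to 15.1 in the others. Array B gave Gapdh ratios of 2.5 for Ang1 replicate 2 and 4.65 for untreated replicate 2, with 6.46 the next lowest. The beta-actin ratio was lowest in untreated replicate 2 on array A (1.86) and in Ang1 replicate 2 on array B (1.25). It did not separate both RNAs from the rest. Ang1 replicate 2 had 6.18 on array A, above untreated replicate 1 (4.34). Untreated replicate 2 had 3.04 on array B, beside 3.02 in untreated replicate 1. Ang1 replicate 3 on array B had been scaled to a trimmed mean of 94.8, where the other 17 arrays had 250 or 250.1. Levels of the smooth muscle gene Myh11 on array A ran from 9.71 to 11.77, of the endothelial gene Kdr from 7.26 to 9.11 and of the fibroblast gene Col1a1 from 11.81 to 12.97. Other markers of the labelled tissue were dimmer: 6 of the 10 kept endothelial markers, among them Vwf (5.38 to 7.82) and Pecam1 (5.90 to 8.28), and 2 of the 11 kept smooth muscle markers fell under the threshold of 6.52 in at least 1 RNA, against 0 of 12 fibroblast markers. These RNAs come from whole rings, in which fewer cells of a type and less RNA per cell cannot be told apart.

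No member passed an adjusted p of 0.05 in any comparison. Neither did any other probe set: limma with Benjamini-Hochberg adjustment called 0 of 9520 (0%) and, for the second array type, 0 of 9166 (0%), whether VEGF or Ang1 was set against the untreated rings or the factors against each other. At an unadjusted p below 0.05 limma counted 157 probe sets (1.65%) of array A for VEGF and 302 (3.17%) for Ang1. The counts on array B were 66 (0.72%) and 960 (10.5%). With the replicate number as a block the array A counts were 294 and 415, and again 0 probe sets were called. The members below are therefore described by their levels, and no statement that a gene rose or fell is made. The number of arrays limits the precision, and the median residual SD of a probe set was 0.44 on array A, or 0.51 on array B. Nothing in the labels ties a replicate number to an animal, so the spread is that between these RNAs.

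After VEGF the members were split about evenly around their untreated levels. On array A, 14 of the 32 genes were higher and 18 lower, with a median difference of -0.02 against -0.01 over all kept probe sets, and 0 members had an unadjusted p below 0.05. With the values as deposited, 12 were lower and the median was 0.10, against 0.07 over all. Without both RNAs that stood apart 1 of 33 members (Mki67) had an unadjusted p below 0.05, against 3.17% of all. With array weights 2 of 32 (Mki67 and Dlgap5) did, against 8.41% of all. On array B, 7 of 13 were higher and 6 lower, with a median of 0.01 against -0.01, and again 0 members had an unadjusted p below 0.05. The split on array B moved with single RNAs. Without untreated replicate 3, 12 of 13 genes were lower and the median was -0.20. Without untreated replicate 2, 1 of 11 was lower (median 0.17), and without VEGF replicate 3, 3 of 12 were (median 0.19).

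After Ang1 more of the members lay lower than higher. On array A, 22 of 32 genes were lower, with a median of -0.21 against -0.03 over all kept probe sets, of which 53% were lower. With array weights 15 of 32 were lower, with a median of 0.03 against 0.01 over all. The split followed the scaling, with 26 of 32 lower after median scaling and 17 of 32 with the values as deposited. Relative to the median of all probe sets, which these scalings shifted by -0.20 and 0.11, the members' median was -0.10 in either. On array B, 10 of 13 were lower, with a median of -0.62 against -0.01. There it was -0.88 and -0.89 relative to all probe sets under those scalings. The VEGF and Ang1 differences share the same 3 untreated RNAs.

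Members at an unadjusted p below 0.05 came from the Ang1 comparison. On array A, 3 of 32 (9.38%) had an unadjusted p below 0.05, all lower (Spc24, Racgap1 and Cdkn3), against 3.17% of all kept probe sets. On array B, 5 of 13 (38.5%) did, Ttk, Ccna2, Kif23 and Nusap1 lower and Tacc3 higher, against 10.5% of all. Spc24 and Ttk passed the filter through the untreated and VEGF RNAs, since their Ang1 means (5.43 and 5.62) lay under it, so these counts are a description. The lowest adjusted p of any member (limma, Benjamini-Hochberg) was 0.953 and 0.466. Without both RNAs that stood apart, untreated replicate 2 and Ang1 replicate 2, the array B count was 0 of 12, against 5.62% of all, with a median of -0.47. On array A, where 33 genes then passed, 17 were lower with a median of -0.11, and over the same 32 genes as before 16 were lower with a median of -0.02. The array B count was 1 of 12 without untreated replicate 1 (Kif23), against 8.28% of all, and 1 of 11 without untreated replicate 2 (Tacc3), against 6.44%. Ttk did not pass the filter in either of these fits. The array A count was 1 of 31 without untreated replicate 2 (Racgap1), against 1.99% of all, and 2 of 31 without VEGF replicate 1, against 2.3%. It was 1 of 19 with the filter at the 60th percentile (Cdkn3), against 2.77%. With array weights the counts rose to 10 of 32 on array A, against 11.9% of all, and 6 of 13 on array B, against 12.9%. Without untreated replicate 2 the array A median was -0.07, with 17 of 31 lower, and without untreated replicate 3 it was -0.34.

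**Figure D1:**
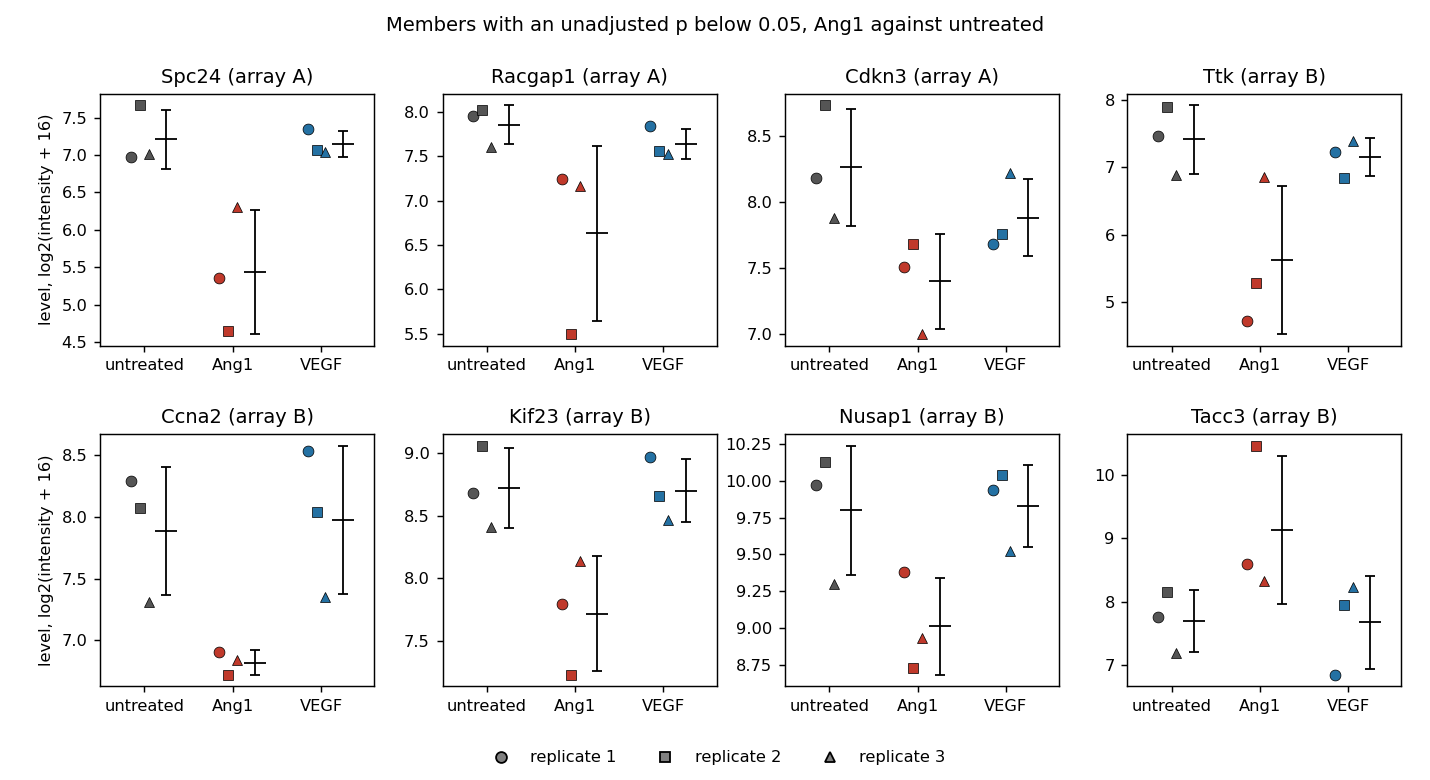
Levels, log2(intensity + 16), of the 8 members with an unadjusted p below 0.05 for Ang1 against untreated; each panel is 1 gene, points are the 3 RNAs of a group, and the bar beside them is the mean with its SD. The Ang1 RNAs of Spc24 (4.65 to 6.30) and Ccna2 (6.72 to 6.91) all sit below the untreated ones, and Tacc3 on array B is the panel where they sit above.

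Genes whose 3 treated RNAs all lay on 1 side of the 3 untreated ones were then counted. After VEGF on array A it was 2 below (6.25%, Rrm1 and Birc5) and 1 above (3.12%, Mcm3) of 32, against 4.81% and 3.63% of all kept probe sets. After Ang1 it was 4 below (12.5%, Spc24, Racgap1, Cdkn3 and Birc5) and 1 above (3.12%, Ccne1), against 5.54% and 3.57%. On array B the VEGF counts were 0 below and 1 above (7.69%, Prc1) of 13, against 3.91% and 2.53%. The Ang1 counts there were 3 below (23.1%, Ttk, Ccna2 and Kif23) and 1 above (7.69%, Tacc3), against 8.76% and 8.73%. Spc24 and Ttk, with Ang1 means under the filter threshold, passed it through the other groups, so the Ang1 counts are a description.

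**Figure D2:**
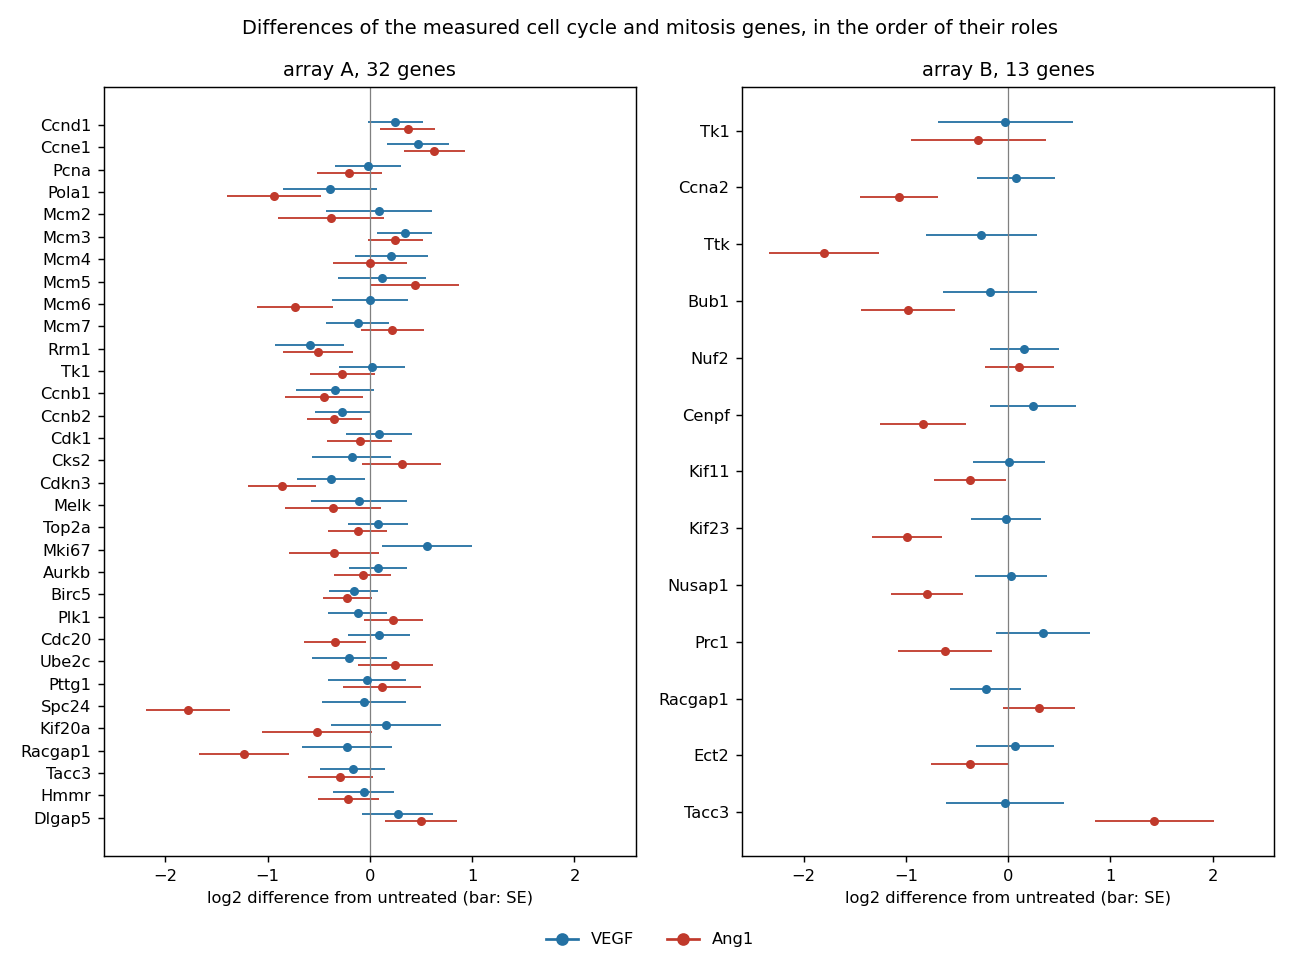
Differences from untreated in log2 units with their SE for the measured members, 32 on array A and 13 on array B, ordered by role from the G1 cyclins at the top to the spindle genes at the bottom; blue is VEGF and red is Ang1. The VEGF points stay within -0.59 and 0.56, while the Ang1 points reach -1.78 for Spc24 and -1.80 for Ttk.

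Both measured cyclins of G1 had positive differences with either factor, between 0.25 and 0.63, and neither had an unadjusted p below 0.05. Ccnd1 (cyclin D1), the growth factor sensor that activates Cdk4 and Cdk6, read 9.49, 8.83 and 9.28 untreated, 9.74, 9.45 and 9.52 with Ang1, and 9.43, 9.47 and 9.45 with VEGF. Its differences were 0.25 ± 0.27 for VEGF and 0.37 ± 0.27 for Ang1, and untreated replicate 2 was the lowest of the 9 RNAs. Ccne1 (cyclin E1), which starts S phase with Cdk2, read 6.90, 6.17 and 6.67 untreated, 7.18, 7.49 and 6.95 with Ang1, and 6.98, 6.82 and 7.36 with VEGF. All 3 Ang1 values lay above the untreated ones, with differences of 0.63 ± 0.30 for Ang1 and 0.47 ± 0.30 for VEGF. Without both RNAs that stood apart the Ccne1 differences were 0.29 and 0.28. After median scaling the Ang1 difference of Ccnd1 was 0.

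The 8 genes of the replication fork and its licensing were split, 4 higher and 4 lower with VEGF (median 0.04) and 3 higher and 5 lower with Ang1 (median -0.10). Pola1, the catalytic subunit of the polymerase that primes each new strand, read 8.56, 7.48 and 7.53 untreated, 6.83, 6.22 and 7.70 with Ang1, and 7.73, 7.85 and 6.81 with VEGF. Its untreated value of 8.56 in replicate 1 was the highest of the 9 RNAs and its Ang1 value of 6.22 in replicate 2 the lowest. The differences were -0.39 ± 0.46 for VEGF and -0.94 ± 0.46 for Ang1. Mcm2 to Mcm7 form the hexameric helicase that unwinds origins, and their differences had either sign. Mcm6 read 6.86, 7.25 and 7.41 untreated, 6.75, 5.69 and 6.88 with Ang1, and 7.02, 6.86 and 7.62 with VEGF, with differences of 0.00 ± 0.37 and -0.73 ± 0.37. Ang1 replicate 2 was the lowest of the 9, and the other 2 Ang1 RNAs lay close to the lower end of the untreated range. Mcm5 ran the other way, at 7.98, 7.97 and 7.03 untreated, 8.12, 8.89 and 7.28 with Ang1, and 7.67, 7.55 and 8.13 with VEGF, with differences of 0.12 ± 0.43 and 0.44 ± 0.43. Here Ang1 replicate 2 was the highest of the 9, and without it the Ang1 differences were 0.04 for Mcm5 and -0.37 for Mcm6. For Pola1 it was then -0.61, and without untreated replicate 1 the Pola1 differences were -0.04 for VEGF and -0.58 for Ang1.

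Mcm3 was the array A member whose VEGF values all cleared the untreated ones, at 7.41, 7.29 and 7.21 untreated, 7.52, 7.91 and 7.22 with Ang1, and 7.64, 7.58 and 7.70 with VEGF, though the step was small (0.34 ± 0.27 for VEGF and 0.25 ± 0.27 for Ang1). Mcm4 read 7.25, 7.88 and 7.32 untreated, 7.79, 6.82 and 7.83 with Ang1, and 8.07, 7.69 and 7.31 with VEGF, with 0.21 ± 0.36 and 0.00 ± 0.36. Mcm7 read 8.27, 8.72 and 8.26 untreated, 8.40, 9.11 and 8.40 with Ang1, and 8.19, 8.09 and 8.61 with VEGF, and its VEGF values lay -0.34 ± 0.31 from the Ang1 values. The groups of Mcm4 and Mcm7 overlapped. The remaining 2 genes of the fork were Pcna, the sliding clamp of the polymerases, at -0.02 ± 0.32 and -0.20 ± 0.32, and Mcm2, at 0.09 ± 0.52 and -0.38 ± 0.52.

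Of the 4 genes that supply nucleotides, Rrm1 and Tk1 were measured. Rrm1, the large subunit of ribonucleotide reductase, read 8.49, 8.51 and 8.32 untreated, 8.39, 7.49 and 7.92 with Ang1, and 7.26, 8.19 and 8.11 with VEGF. All 3 VEGF values lay below the untreated ones, as did 2 of the 3 Ang1 values, and the differences were -0.59 ± 0.34 and -0.51 ± 0.34. Without VEGF replicate 1 the first was -0.29, and without Ang1 replicate 2 the second was -0.30. Tk1, the thymidine salvage kinase of S phase, was read by 3 probe sets. The brightest on array A differed by 0.02 ± 0.32 for VEGF and -0.27 ± 0.32 for Ang1, and the second on array A by -0.41 ± 0.29 and 0.16 ± 0.29. The array B probe set read 6.75, 7.62 and 6.20 untreated, 5.81, 8.27 and 5.63 with Ang1, and 6.61, 6.95 and 6.92 with VEGF. Its difference of -0.03 ± 0.66 for VEGF sat on a spread in which Ang1 replicate 2 alone reached 8.27. Rrm2, the small subunit, was under the filter, as was thymidylate synthase (Tyms).

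Of the cyclins, kinase and regulators of S to M phase on array A, 5 of 6 measured genes were lower with VEGF (median -0.23) and 5 of 6 with Ang1 (median -0.35). Over all kept probe sets 50.8% and 53% were lower. Their mean centred level was 0.17 ± 0.38 untreated, -0.14 ± 0.27 with Ang1 and -0.03 ± 0.15 with VEGF (SD). Without untreated replicate 2 the VEGF differences were 0.12 for Cks2 and Cdk1 and 0.06 for Melk, while those of Ccnb1, Cdkn3 and Ccnb2 stayed negative. Cdkn3, a phosphatase that removes the activating phosphate of Cdk1 and Cdk2, read 8.18, 8.73 and 7.88 untreated, 7.51, 7.68 and 7.0 with Ang1, and 7.68, 7.76 and 8.22 with VEGF. The 3 Ang1 values all lay under the lowest untreated value. The differences were -0.86 ± 0.33 for Ang1 and -0.38 ± 0.33 for VEGF. Ccna2 (cyclin A2), needed in S phase and at the entry to mitosis, was measured on array B. It read 8.29, 8.07 and 7.31 untreated, 6.91, 6.72 and 6.84 with Ang1, and 8.54, 8.04 and 7.35 with VEGF. The Ang1 RNAs lay between 6.72 and 6.91, below all 6 other RNAs, a difference of -1.07 ± 0.38 from untreated, while VEGF differed by 0.08 ± 0.38. These Ang1 values sat just above the filter threshold of 6.71, so no ratio is given.

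Ccnb1 (cyclin B1), the partner of Cdk1 in mitosis, read 8.33, 8.49 and 7.73 untreated, 7.54, 8.29 and 7.36 with Ang1, and 7.93, 8.34 and 7.28 with VEGF. Replicate 3 was the lowest RNA of each group, the groups overlapped, and the differences were -0.34 ± 0.38 for VEGF and -0.45 ± 0.38 for Ang1. A second, dimmer probe set of Ccnb1 differed by 0.40 ± 0.27 and -0.25 ± 0.27, so the sign for VEGF depended on the probe set. Ccnb2 (cyclin B2) read 7.53, 7.48 and 7.16 untreated, 6.98, 7.36 and 6.77 with Ang1, and 7.20, 7.17 and 6.97 with VEGF, with -0.27 ± 0.27 and -0.35 ± 0.27. Cks2, a small adaptor subunit of Cdk1, read 8.08, 8.73 and 7.58 untreated, 8.13, 9.20 and 7.98 with Ang1, and 8.0, 7.86 and 7.99 with VEGF. Its highest value was that of Ang1 replicate 2, without which the Ang1 difference went from 0.31 ± 0.39 to -0.08. The VEGF difference of Cks2 was -0.18 ± 0.39. Cdk1 itself differed by 0.09 ± 0.32 and -0.10 ± 0.32, and the kinase Melk by -0.11 ± 0.47 and -0.36 ± 0.47. Foxm1, the transcription factor of the late cell cycle genes, was under the filter.

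The proliferation antigen Mki67, which coats mitotic chromosomes, had the largest positive VEGF difference of the 32 genes on array A. It read 7.80, 8.64 and 8.13 untreated, 7.04, 8.85 and 7.61 with Ang1, and 8.49, 8.78 and 8.96 with VEGF. The VEGF RNAs lay above untreated replicates 1 and 3, and 2 of them above untreated replicate 2, a difference of 0.56 ± 0.44. The Ang1 RNAs ran from 7.04, the lowest of the 9, to 8.85 in replicate 2, and differed by -0.35 ± 0.44. Without Ang1 replicate 2 this difference was -0.90, at an unadjusted p below 0.05, and without Ang1 replicate 1 it was 0.04. Without untreated replicate 1 the VEGF difference was 0.36, without untreated replicate 2 it was 0.77, and without both RNAs that stood apart 0.80. Topoisomerase Top2a, which untangles sister chromatids, differed by 0.08 ± 0.29 and -0.12 ± 0.29.

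Among the mitotic kinases and the spindle checkpoint, the array A genes stayed near untreated and the array B genes lay low with Ang1. Ttk (Mps1), the kinase that starts checkpoint signalling at unattached kinetochores, read 7.46, 7.89 and 6.88 untreated, 4.72, 5.28 and 6.85 with Ang1, and 7.23, 6.84 and 7.38 with VEGF. Ang1 replicates 1 and 2 lay far below every other RNA, and replicate 3 just under the lowest untreated value. The difference was -1.80 ± 0.54 for Ang1 and -0.26 ± 0.54 for VEGF. The Ang1 mean of 5.62 lay under the filter threshold of 6.71, so Ttk passed through the other groups and no ratio is given. Without untreated replicate 1 or 2, or VEGF replicate 1 or 3, Ttk no longer passed the filter. Its second probe set, under the filter, ran the other way, at 4.92, 5.52 and 6.13 untreated, 6.93, 7.24 and 5.30 with Ang1, and 5.21, 5.01 and 5.49 with VEGF. Bub1, the checkpoint kinase that marks the centromere, read 9.01, 9.32 and 8.08 untreated, 8.35, 7.25 and 7.88 with Ang1, and 9.0, 9.03 and 7.85 with VEGF. Its differences were -0.98 ± 0.46 for Ang1, which was -0.45 without both RNAs that stood apart, and -0.18 ± 0.46 for VEGF, and untreated and VEGF replicate 3 lay within the Ang1 range.

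On array A, Plk1, the kinase of centrosome maturation and mitotic exit, read 8.15, 7.58 and 7.43 untreated, 8.04, 8.05 and 7.75 with Ang1, and 7.46, 7.46 and 7.89 with VEGF. Untreated replicate 1 lay above every Ang1 value and untreated replicates 2 and 3 below them. The Ang1 difference was 0.23 ± 0.29, and VEGF differed by -0.12 ± 0.29. Birc5 (survivin), the targeting subunit of the chromosomal passenger complex, had both treated groups under all untreated values but by a small step, -0.16 ± 0.24 for VEGF and -0.22 ± 0.24 for Ang1. It was singled out after its values were seen. The passenger kinase Aurkb differed by 0.08 ± 0.28 and -0.07 ± 0.28. Aurka and Bub1b were under the filter.

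The 3 genes around the anaphase-promoting complex had small differences of mixed sign. Ube2c, the ubiquitin-conjugating enzyme of that complex, read 8.01, 8.34 and 7.59 untreated, 7.99, 8.96 and 7.75 with Ang1, and 8.10, 7.58 and 7.64 with VEGF. As with Cks2 the highest value was that of Ang1 replicate 2, and the differences were -0.20 ± 0.37 for VEGF and 0.25 ± 0.37 for Ang1, the latter -0.11 without that RNA. Cdc20, its mitotic activator, differed by 0.09 ± 0.30 and -0.34 ± 0.30, or 0.64 ± 0.31 and 0.12 ± 0.31 on a second kept probe set. Pttg1 (securin), which holds separase inactive, differed by -0.03 ± 0.38 and 0.12 ± 0.38.

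At the kinetochore, Spc24 carried the lowest Ang1 difference of any member on array A. Spc24, a subunit of the Ndc80 complex that grips microtubules, read 6.97, 7.67 and 7.01 untreated, 5.35, 4.65 and 6.30 with Ang1, and 7.35, 7.07 and 7.04 with VEGF. The groups did not overlap: the 3 Ang1 values lay below all 6 others. The difference was -1.78 ± 0.41 for Ang1 and -0.06 ± 0.41 for VEGF. All 3 Ang1 values were also under the filter threshold of 6.52, and Spc24 passed through the other groups, so no ratio is given. Without Ang1 replicate 2 the difference was -1.41, and without both RNAs that stood apart -1.18. Without untreated replicate 2 or VEGF replicate 1, Spc24 no longer passed the filter. Both other measured kinetochore genes were on array B. Nuf2, of the same complex, read 9.53, 9.78 and 9.15 untreated, 10.15, 9.41 and 9.24 with Ang1, and 9.69, 9.68 and 9.57 with VEGF, with 0.16 ± 0.34 for VEGF and 0.11 ± 0.34 for Ang1. With the values as deposited the Ang1 difference of Nuf2 was -0.53. Cenpf, a large kinetochore protein of G2 and M phase, read 9.92, 9.30 and 8.63 untreated, 8.04, 8.24 and 9.06 with Ang1, and 9.69, 9.70 and 9.15 with VEGF, with 0.24 ± 0.42 and -0.83 ± 0.42. Ang1 replicates 1 and 2 lay below every other RNA, and Ang1 replicate 3 above untreated replicate 3. Ndc80 itself was under the filter.

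The spindle and cytokinesis genes included genes whose probe sets disagreed. Kif23 (MKLP1), the motor of the central spindle, read 8.68, 9.06 and 8.41 untreated, 7.80, 7.23 and 8.14 with Ang1, and 8.97, 8.66 and 8.47 with VEGF. The 3 Ang1 values lay below all 6 others, and the difference was -0.99 ± 0.34 for Ang1, which was -0.60 without both RNAs that stood apart, and -0.02 ± 0.34 for VEGF. A second probe set of Kif23 under the filter read 5.20, 5.31 and 4.96 untreated, 7.25, 6.59 and 5.69 with Ang1, and 5.92, 5.44 and 5.42 with VEGF, higher in the Ang1 RNAs. Racgap1, which forms the centralspindlin complex with Kif23, read 7.96, 8.02 and 7.61 untreated, 7.25, 5.49 and 7.17 with Ang1, and 7.84, 7.56 and 7.53 with VEGF on array A. Every Ang1 value lay below every other, and the difference was -1.23 ± 0.44 for Ang1, which was -0.68 without Ang1 replicate 2, and -0.22 ± 0.44 for VEGF. On array B its probe set read 6.93, 6.61 and 6.77 untreated, 6.73, 7.56 and 6.91 with Ang1, and 6.49, 6.71 and 6.44 with VEGF. There the differences were 0.30 ± 0.35 for Ang1 and -0.22 ± 0.35 for VEGF, so the 2 probe sets of Racgap1 had opposite signs for Ang1. Without Ang1 replicate 2 the array B value was 0.05.

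Tacc3, which stabilises kinetochore fibres with clathrin, also differed between array types. On array B it read 7.75, 8.16 and 7.18 untreated, 8.59, 10.47 and 8.33 with Ang1, and 6.84, 7.94 and 8.23 with VEGF. All 3 Ang1 values lay above the untreated and VEGF values, and replicate 2 was far above the rest, a difference of 1.43 ± 0.58 for Ang1 and -0.03 ± 0.58 for VEGF. Without Ang1 replicate 2 the Ang1 difference was 0.79. On array A the Tacc3 differences were -0.29 ± 0.32 and -0.17 ± 0.32. Nusap1, a microtubule bundling protein singled out after its values were seen, read 9.97, 10.13 and 9.30 untreated, 9.38, 8.73 and 8.93 with Ang1, and 9.94, 10.04 and 9.52 with VEGF, with -0.79 ± 0.35 for Ang1 and 0.03 ± 0.35 for VEGF. Its second kept probe set differed by -0.03 ± 0.34 for Ang1.

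Prc1, the crosslinker of antiparallel microtubules in the midzone, read 10.33, 10.05 and 10.22 untreated, 10.29, 8.37 and 10.07 with Ang1, and 10.49, 10.42 and 10.70 with VEGF. The VEGF values all lay above the untreated ones, by 0.34 ± 0.46, and the Ang1 difference was -0.62 ± 0.46, with Ang1 replicate 2 far below the others and the other 2 Ang1 RNAs within the untreated range. Kif20a (MKLP2), which brings the passenger complex to the midzone, read 7.31, 6.85 and 7.18 untreated, 7.55, 5.06 and 7.16 with Ang1, and 7.32, 7.38 and 7.13 with VEGF. Its Ang1 difference was -0.52 ± 0.54, or 0.25 without the low Ang1 replicate 2, and its VEGF difference was 0.16 ± 0.54. Dlgap5 (HURP), a spindle microtubule stabiliser, read 7.19, 7.91 and 7.52 untreated, 7.71, 8.58 and 7.82 with Ang1, and 8.03, 8.05 and 7.34 with VEGF, with 0.27 ± 0.35 and 0.50 ± 0.35. Without Ang1 replicate 2 the Ang1 value of Dlgap5 was 0.24, and without untreated replicate 1 its VEGF value was 0.09. Differences were smaller for the rest: Hmmr at -0.06 ± 0.30 and -0.21 ± 0.30, the motor Kif11 at 0.01 ± 0.35 and -0.37 ± 0.35, and the cytokinesis gene Ect2 at 0.07 ± 0.38 and -0.37 ± 0.38, VEGF first in each.

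A mean was then taken over the members of an array type in each RNA, after each gene was centred on its own mean over the 9 RNAs. On array B this score was 0.30, 0.41 and -0.24 in the untreated RNAs, -0.40, -0.30 and -0.27 in the Ang1 RNAs and 0.25, 0.28 and -0.02 in the VEGF RNAs. By this mean the 3 Ang1 RNAs were the lowest of the 9, but the step from -0.27 in Ang1 replicate 3 to -0.24 in untreated replicate 3 was far smaller than the spread. By the median over the centred members, Ang1 replicate 1 (-0.17) lay above untreated replicate 3 (-0.24). On array A the scores were 0.14, 0.22 and -0.12 untreated, -0.10, -0.12 and -0.20 with Ang1 and 0.06, 0.10 and 0.03 with VEGF. There untreated replicate 3 lay inside the Ang1 range. The pooled SD within groups was 0.23 for array B, and 0.11 for array A.

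**Figure D3:**
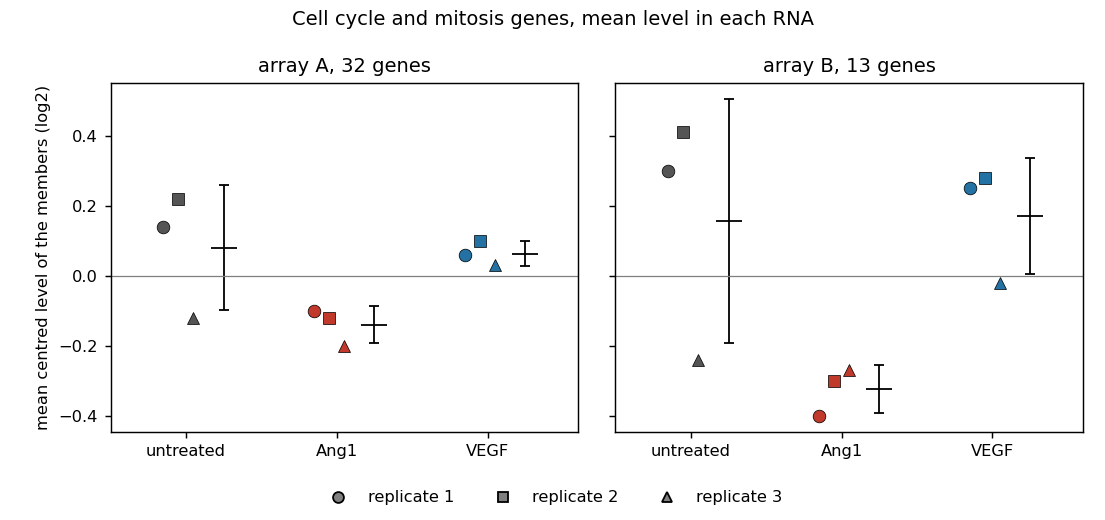
Mean centred level of the members in each RNA (log2 units), over the 32 genes of array A or the 13 of array B; points are RNAs and the bars their mean and SD in a group. The Ang1 RNAs lie from -0.40 to -0.27 on array B, and untreated replicate 3 is low on both array types (-0.12 and -0.24).

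Ang1 replicate 2 gave extremes in both directions. It was the highest of the 9 RNAs in 9 of the 32 array A members and the lowest in 9, and on array B the highest in 4 of 13 and the lowest in 6. Of the named Ang1 differences, leaving out this RNA moved 11 of 16 (array A) and 3 of 7 (array B) by over 1.5 times or turned their sign. Counting such a change from any 1 RNA left out, it was 13 of 16 and 3 of 7 for the named Ang1 differences. By the same count it was 14 of 16 and 7 of 8 for the named VEGF differences. Untreated replicate 2 was the highest in 9 members on array A and in 4 on array B. As a description of how far the members ran together over the 9 RNAs they share, the median Pearson correlation over pairs of members was 0.126 over 496 pairs of array A and 0.285 over 78 pairs of array B, against 1.22e-05 and -0.00211 over pairs of all kept probe sets. Without both RNAs that stood apart it was 0.128 and 0.35.

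Set directly against each other, VEGF lay above Ang1 in 22 of 32 members on array A (median 0.15, against 0.02 over all kept probe sets) and in 11 of 13 on array B (median 0.80, against 0.04). On array A the median was 0.04 without Ang1 replicate 3 (17 of 32 higher), 0.07 without VEGF replicate 2, 0.09 without VEGF replicate 1 and 0.04 with the values as deposited (19 of 32). At an unadjusted p below 0.05 limma counted 2 of 32 (Spc24 and Racgap1), against 189 probe sets or 1.99% of all, and 6 of 13 on array B, against 777 or 8.48%. Among those counted, Spc24 and Ttk had Ang1 means under the filter threshold and passed through the other groups. These counts are therefore a description. The lowest adjusted p of a member (limma, Benjamini-Hochberg) was 0.972 and 0.561 in turn. The largest positive differences on array A were 1.72 ± 0.41 for Spc24, 1.01 ± 0.44 for Racgap1, 0.91 ± 0.44 for Mki67 and 0.73 ± 0.37 for Mcm6. On the other side stood Cks2 at -0.49 ± 0.39, Ube2c at -0.46 ± 0.37, and Plk1 and Mcm7 at -0.34 ± 0.29 and -0.34 ± 0.31. Like Spc24, Mcm6 had an Ang1 mean (6.44) under the filter threshold of 6.52.

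On array B the difference of VEGF from Ang1 was 1.53 ± 0.54 for Ttk, 1.16 ± 0.38 for Ccna2, 1.07 ± 0.42 for Cenpf and 0.97 ± 0.34 for Kif23. The 2 negative ones were Tacc3 at -1.46 ± 0.58 and Racgap1 at -0.52 ± 0.35. The VEGF mean of Racgap1 on array B (6.55) lay under the filter threshold of 6.71. For Ccna2, Cenpf and Kif23 all 3 VEGF values lay above all 3 Ang1 values. For Ttk the groups overlapped, with VEGF replicate 2 at 6.84 and Ang1 replicate 3 at 6.85. Without VEGF replicate 1 the count at an unadjusted p below 0.05 on array B was 0 of 12, against 4.22% of all, and the median 0.48. Ttk did not pass the filter in that fit.

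The lists of related genes were read the same way, and 0 of their members passed an adjusted p of 0.05 (limma, Benjamini-Hochberg). Of 10 inhibitors of cyclin-dependent kinases and pocket proteins, 6 were kept on array A. With VEGF 5 of 6 were lower (median -0.36) and with Ang1 3 of 6 (median -0.02). On array B 3 were kept, of which 1 was lower with either factor (medians 0.12 and 0.29). Cdkn1a (p21), the p53 target that stops the cycle in G1, differed by 0.25 ± 0.26 with VEGF, and all 3 VEGF values lay above the untreated ones. Cdkn2c (p18), Rbl2 and the retinoblastoma gene Rb1 differed by -0.54 ± 0.56, -0.39 ± 0.40 and -0.32 ± 0.34. With Ang1 the extremes were Cdkn1b (p27) at 0.35 ± 0.38, Cdkn2c at 0.19 ± 0.56, Cdkn1c (p57) at -0.12 ± 0.41 and Rb1 at -0.44 ± 0.34.

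The further G1 cyclins, kinases and E2F factors (13 of 22 kept on array A) had a median of -0.20 with VEGF and 0.12 with Ang1, the latter -0.11 without Ang1 replicate 2. On array B, where 5 were kept, the medians were -0.01 and -0.67, and without that RNA the Ang1 median was 0.07. Cdk4, the partner of cyclin D, read 10.32, 8.48 and 10.01 untreated, 10.26, 8.97 and 10.39 with Ang1, and 10.72, 10.44 and 10.36 with VEGF, and Ccnd3 (cyclin D3) was the other of the 2 highest with VEGF, at 0.91 ± 0.50 and 0.43 ± 0.51. The lowest were Ccnh and the repressor E2f6, at -0.52 ± 0.34 and -0.45 ± 0.26. With Ang1 the highest were Ccnd3 at 0.86 ± 0.51 and Myc at 0.33 ± 0.40, and the lowest Cdk7 at -0.64 ± 0.49 and E2f8 at -0.32 ± 0.32.

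Of 40 further replication genes 21 were kept on array A, with 10 lower with VEGF (median 0.00) and 16 lower with Ang1 (median -0.14). On array B 12 were kept, 2 of them lower with VEGF (median 0.10) and 6 with Ang1 (median -0.02). Rpa3, a subunit of the single-strand binding protein, was the lowest with either factor, at -0.94 ± 0.43 and -0.93 ± 0.43, and read 8.57, 8.95 and 7.83 untreated, 7.58, 7.38 and 7.59 with Ang1, and 7.71, 8.21 and 6.62 with VEGF. Next came Rfc3 of the clamp loader with VEGF (-0.48 ± 0.31) and the primase subunit Prim1 with Ang1 (-0.64 ± 0.41). The highest were the polymerase subunit Pold1 (0.52 ± 0.39) and Gins1 of the helicase (0.32 ± 0.27) with VEGF, and Pold2 (0.28 ± 0.49) and Rfc2 (0.10 ± 0.40) with Ang1.

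Of 61 further mitosis genes, array A kept 21 and array B kept 18. With VEGF 8 of 21 and 8 of 18 were lower (medians 0.09 and 0.03), and with Ang1 13 of 21 and 13 of 18 (medians -0.10 and -0.60). At an unadjusted p below 0.05 for Ang1 there was 1 on array A, Tubb5 (beta-tubulin), higher at 0.62 ± 0.23, and 5 on array B, all lower: Kif20b (-1.59 ± 0.61), Pbk (-1.46 ± 0.47), Cenpk (-1.41 ± 0.43), Fam83d (-1.07 ± 0.40) and Aspm (-0.85 ± 0.31). Over all kept probe sets the shares at that p were 3.17% and 10.5%. These 5 were named after their values were seen. The array A extremes were also the checkpoint gene Bub3 at 0.55 ± 0.36, the spindle motor Kif15 at -0.89 ± 0.40 and the Cdk1 inhibitor Wee1 at -0.68 ± 0.77. With VEGF they were Ckap5 at 0.51 ± 0.30, Bub3 and Cdca8 at 0.37 ± 0.36 and 0.37 ± 0.92, H2az1 at -0.46 ± 0.33 and Cdca3 at -0.19 ± 0.43. On array B the mean centred level of these genes was 0.34, 0.26 and -0.09 untreated, -0.09, -0.85 and -0.15 with Ang1, and 0.45, 0.39 and -0.25 with VEGF. Ang1 replicate 2 thus lay far below the rest, and the other Ang1 RNAs were at or just under untreated replicate 3 and above VEGF replicate 3. Without Ang1 replicate 2 the Ang1 median on array B was -0.36, with 4 of 18 at an unadjusted p below 0.05, against 7.4% of all. Without both RNAs that stood apart it was -0.25, with 0 of 18, against 5.62%. On array A, 9 of 21 were lower with Ang1 without Ang1 replicate 2 (median 0.05), and 11 of 21 without both RNAs (median -0.02).

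Antiproliferative and p53 response genes (13 of 23 kept on array A) had medians of -0.04 with VEGF and 0.00 with Ang1. On array B 6 were kept, 4 of them lower with VEGF (median -0.11) and 5 with Ang1 (median -0.20). The extremes were Gadd45g (0.70 ± 0.52), Gadd45b (0.59 ± 0.64), Gadd45a (-0.37 ± 0.31) and Ccng2 (-0.46 ± 0.63) with VEGF. With Ang1 they were Tob2 (0.40 ± 0.34), Klf4 (0.27 ± 0.36), Btg3 (-0.36 ± 0.36) and Ccng2 (-0.93 ± 0.63).

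Markers of the cell types in a ring were read beside the members. For the endothelial list (10 of 14 kept on array A) the mean centred level was 0.27, -0.78 and 0.33 untreated, 0.00, -0.86 and 0.36 with Ang1 and 0.31, -0.07 and 0.44 with VEGF. It was thus lowest in untreated and Ang1 replicate 2, the RNAs that stood apart. The smooth muscle list (11 of 12) followed the same RNAs in part, at 0.38, -0.44 and 0.59, then 0.22, -0.46 and 0.06, then -0.22, 0.08 and -0.20. The macrophage list (9 of 13) was 0.33, -0.40 and -0.71 untreated, 0.15, -0.26 and 0.12 with Ang1 and 0.33, 0.10 and 0.33 with VEGF, lowest in untreated replicate 3. The summed levels of endothelial markers on array A spanned 10.82 to 11.77 untreated, 10.76 to 11.86 with Ang1 and 11.26 to 11.83 with VEGF (log2).

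On array A, fibroblast markers (12 of 12 kept) had scores between -0.21 and 0.25 and summed levels of 15.30 to 15.52 untreated, 15.27 to 15.59 with Ang1 and 15.50 to 15.54 with VEGF. Pericyte markers (8 of 8) spanned 11.45 to 12.04, 11.50 to 11.92 and 11.66 to 12.15 in the same order. Macrophage markers spanned 13.18 to 13.90, 13.77 to 13.87 and 13.76 to 14.05, smooth muscle markers 13.18 to 13.82, 13.06 to 13.25 and 12.91 to 13.08, and lymphocyte markers (2 of 8) 7.63 to 7.97, 7.72 to 8.29 and 7.61 to 7.80. On array B endothelial markers (2 of 14, Tek and Erg) had mean scores of 0.37 ± 0.25 untreated, -0.41 ± 0.70 with Ang1 and 0.04 ± 0.38 with VEGF (SD, n = 3). Erg differed with Ang1 by -0.82 ± 0.47 (SE) on array B but by 1.13 ± 0.50 on array A. The array A endothelial score was -0.06 ± 0.62 untreated and -0.17 ± 0.63 with Ang1 (SD). Macrophage markers on array B (3 of 13) ran opposite to the endothelial ones of that array, at -0.36 ± 0.37, 0.32 ± 0.42 and 0.03 ± 0.12. So did the 1 lymphocyte marker kept of 8, at -0.65 ± 0.50, 0.60 ± 0.72 and 0.05 ± 0.29. The part of any of these cell types in the member levels with Ang1 was not tested.

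**Figure D4:**
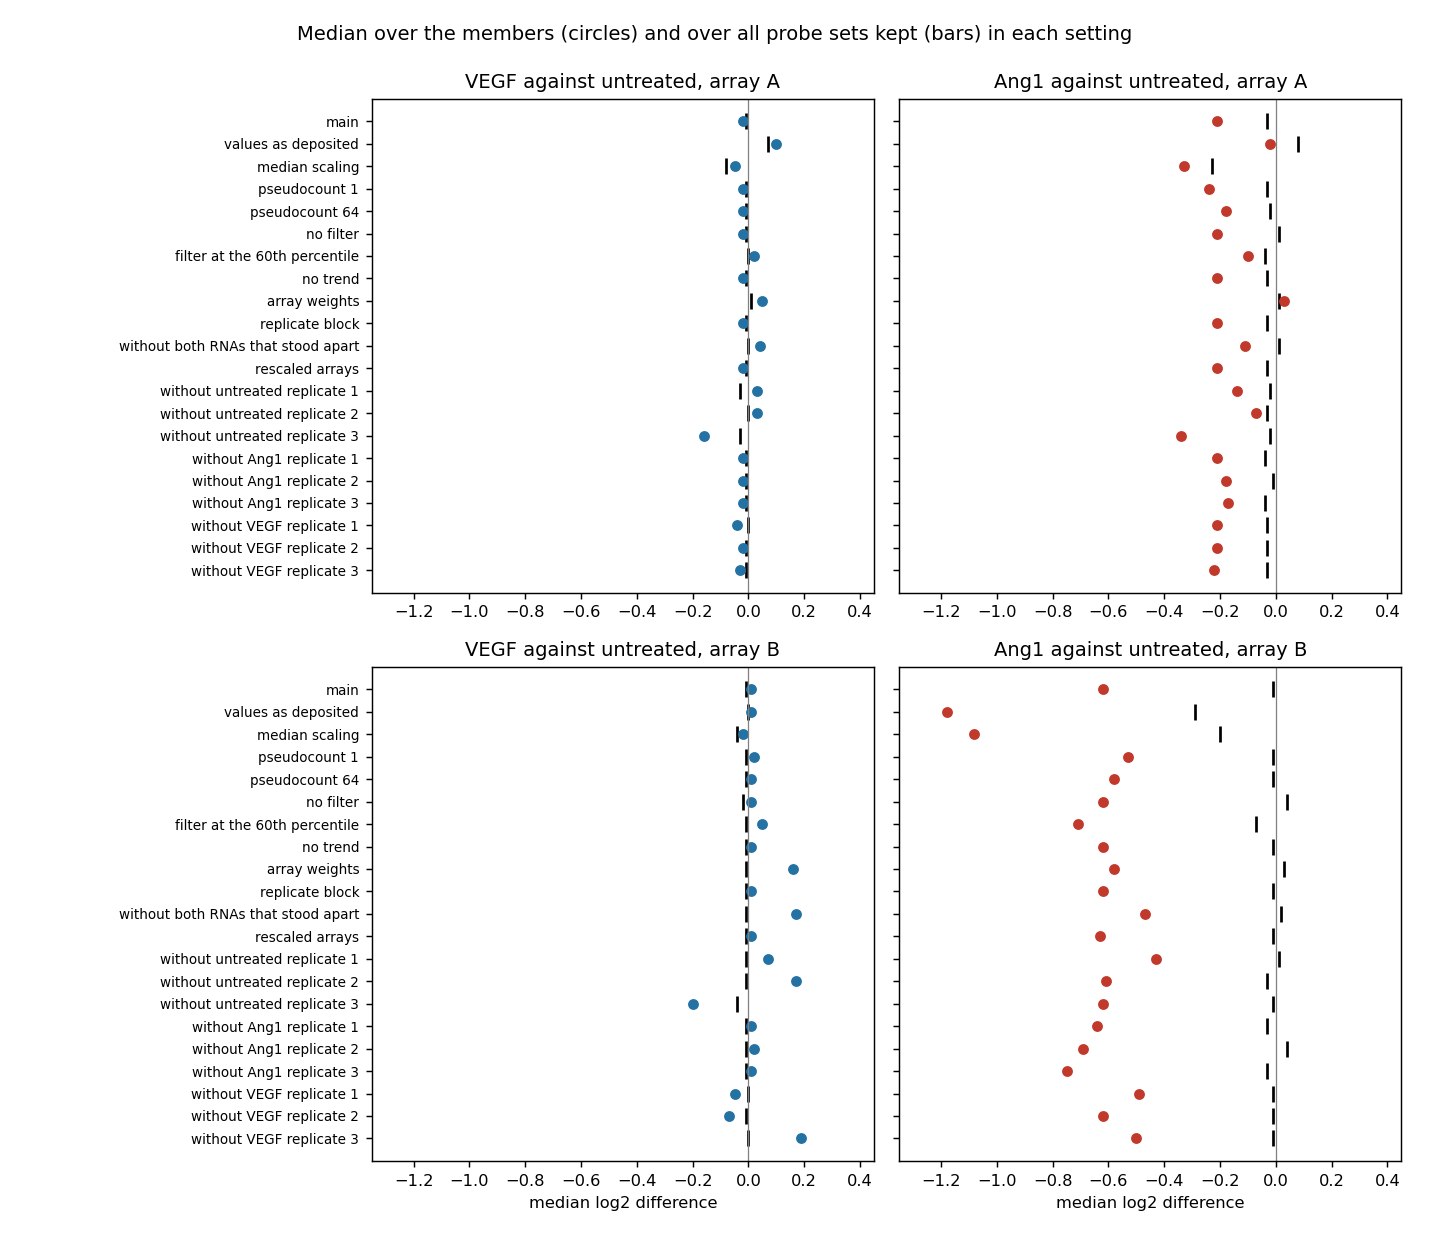
Median log2 difference of the members (circles) and of all kept probe sets (black bars) for VEGF and Ang1 against untreated under the settings listed on its axis, with array A in the upper row and array B in the lower. The Ang1 circles on array B stay between -1.18 and -0.43, left of the bars, whereas those on array A run from -0.34 to 0.03 and the VEGF circles lie on both sides of 0. Not drawn are the mean over a gene's probe sets and the inclusion of low probe sets, which gave -0.41 and -0.47 for Ang1 on array B.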

How the data were processed

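Each of 9 RNAs, 3 per group, was hybridised to an RAE230A and an RAE230B array, 18 in all. The deposited values are probe set intensities on a linear scale, made by the authors with MAS5 per the submitters' processing notes, whose version these sources do not give. In R 4.3.3, log2(intensity + 16) was quantile normalised within an array type, 57 control probe sets were removed from each type, and those whose mean over the 9 arrays reached the 40th percentile stayed in. limma 3.58.1 fitted the 3 groups with an intensity trend, and p-values were Benjamini-Hochberg adjusted over all kept probe sets (threshold 0.05). The fit was tested on simulated data. A fold change on this scale understates that of dim probe sets.

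Genes were named from GEO's platform annotation: on array A 12789 probe sets had 1 symbol, 312 several and 2822 none, and on array B 7570, 100 and 7663. The members and all lists were chosen with earlier results of these data known. Each comparison with untreated names the 8 members on array A, and 4 on array B, with the largest differences in either direction; fewer stand there where fewer had that sign. The comparison of the factors names 4 in either direction, and each related list 2, on array A.

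The design text has each animal give 1 RNA to every group. Deviations of same-numbered untreated and treated RNAs correlated at 0.14 to 0.49 over both array types. The highest, 0.49, was that of untreated and Ang1 replicate 2 on array A, the RNAs that stood apart. For VEGF with Ang1 the correlations ran from -0.21 to 0.23. Pairs of unlike number were not compared, so these values cannot tie a replicate number to an animal. Alternatives were other scalings, pseudocounts, filters and array weights, the replicate number as a block, each RNA left out, and both RNAs that stood apart left out. Rescaling the arrays to 1 trimmed mean, and leaving RNAs out for the related lists and for members outside the naming rule, were added after seeing the data.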

Additional observations from a re-analysis of the deposited data

How the results depend on the processing

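With 3 RNAs a group, the array number and the spread of the 2 RNAs that stood apart limit every value. The median differences of the members that moved most were, with the values as deposited, 0.10 (VEGF, array A), -0.02 (Ang1, array A), -1.18 (Ang1, array B) and 1.10 (VEGF against Ang1, array B). With median scaling they were -0.33 (Ang1, array A) and -1.08 (Ang1, array B). The 60th percentile filter gave -0.10 and array weights 0.03 for Ang1 on array A, and the mean over a gene's probe sets gave 0.43 for VEGF against Ang1 on array B. Leaving out 1 RNA at a time, the medians ran from -0.16 to 0.03 (VEGF, array A), from -0.34 to -0.07 (Ang1, array A), from 0.04 to 0.22 (VEGF against Ang1, array A) and from 0.48 to 0.88 (VEGF against Ang1, array B). Probe sets called by limma numbered 0 except with array weights, 6 (Ang1) and 24 (VEGF against Ang1) for array A but 2 and 8 for array B, and with the values as deposited, 117 and 25 on array B. The values as deposited leave Ang1 replicate 3 on array B at its trimmed mean of 94.8, against 250 or 250.1 in the other arrays. Array weights gave Ang1 replicate 2 a weight of 0.131 on array A, untreated replicate 2 0.303 and VEGF replicate 3 0.379. On array B these weights were 0.132, 0.567 and 0.509. Under array weights Spc24 (1.62) and Mki67 (1.53) passed for VEGF against Ang1 on array A, where 0.252% of all probe sets did. Spc24 had all 3 Ang1 values under the filter threshold and passed the filter through the other groups. Of 61 named differences, 47 kept their sign under every alternative run. Among these alternatives, the replicate block, the fit without the intensity trend and the other filters cannot change a sign. Rescaling the arrays, or leaving out an RNA of the group not compared, can act on a difference only through the normalisation. For Ang1 on array A, median scaling gave 0 for Ccnd1, 0 for Cks2 and -0.01 for Ube2c. Array weights gave 0.06 for Ccnb1 (VEGF), 0.21 for Kif20a (Ang1), 0.16 for Bub1 (VEGF), 0.11 for Tk1 (VEGF, array B) and -0.01 for Racgap1 (Ang1, array B). Without both RNAs that stood apart, Cks2 (VEGF) was 0.13, Kif20a (Ang1) 0.12, Bub1 (VEGF) 0.08 and Racgap1 (Ang1, array B) -0.03. Nuf2 (Ang1) was -0.53 with the values as deposited and -0.43 with median scaling. Leaving out 1 RNA at a time, VEGF differences ran from -0.45 to 0.12 for Cks2, -0.19 to 0.28 for Mcm5, -0.53 to 0.21 for Bub1, -0.09 to 0.55 for Cenpf, -0.01 to 0.30 for Nuf2, -0.20 to 0.40 for Ccna2 and -0.36 to 0.08 for Tk1. Ang1 differences ran from -0.08 to 0.60 for Cks2, -0.11 to 0.49 for Ube2c, -1.0 to 0.25 for Kif20a and -0.17 to 0.29 for Nuf2. Counts at an unadjusted p below 0.05 ran over all alternatives from 86 to 801 (VEGF), 176 to 1134 (Ang1) and 98 to 1740 (VEGF against Ang1) for array A, and from 17 to 350, 515 to 1704 and 360 to 1658 for array B. With the replicate block 0 probe sets were called, and the unadjusted counts were 294, 415 and 408 (array A) or 98, 979 and 887 (array B). The block cannot change a difference or a median, because each group holds 1 RNA of each replicate number. The causes of these shifts were not tested.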
